A study of Mus musculus with 24 samples.

Results

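The genes described here control the passage of a cell from G1 into S phase: the D-type cyclins Ccnd1, Ccnd2 and Ccnd3, the kinases Cdk4 and Cdk6, the inhibitors Cdkn2a, Cdkn2b, Cdkn2c and Cdkn1b, and the retinoblastoma gene Rb1. They were chosen by name, from a list of G1 regulators and not by a threshold on their values, and are 10 of the 19661 genes that the array measured with a probe set naming a single gene. They were carried by 11 probe sets, since Cdkn1b had a pair, and all 10 passed the filter on low values described under the processing. Rb1 was above the filter level on 23 of 24 arrays and each of the other members on 24, so no member was in the test through 1 group alone.

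The cells were mouse embryonic fibroblasts (MEFs) from E13.5 embryos (days of gestation), with 3 wild type (WT) and 3 Eif4e+/- embryos. Eif4e encodes the protein that binds the cap of mRNAs, and Eif4e+/- cells, here also called heterozygous (Het), carry a single intact allele. Each embryo gave an early-passage untransformed primary culture and a matched culture transformed with Ras and Myc, and each of these 12 cultures gave a total RNA array and an array of RNA from heavy polysomes, in which mRNAs carry many ribosomes. The 8 groups were therefore untransformed WT, untransformed Eif4e+/-, transformed WT and transformed Eif4e+/- cells in each of 2 fractions, with 3 embryos in each. All cultures grew in medium with 10% serum and were taken in exponential growth, and those for polysomal RNA had received cycloheximide at 100 μg/ml. Every transformed culture carried both oncogenes, so Ras and Myc cannot be told apart. The forms of the oncogenes, and whether a transformed culture was a clone or a pool, are not given in the sources used here.

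In the textbook pathway, mitogens raise the D-type cyclins, which bind CDK4 or CDK6 and phosphorylate the RB protein. Phosphorylated RB releases E2F transcription factors, which turn on the genes of DNA replication. The INK4 proteins, made by Cdkn2a (p16), Cdkn2b (p15) and Cdkn2c (p18), block CDK4 and CDK6, and p27, made by Cdkn1b, binds cyclin-CDK complexes and blocks those of CDK2. Cdkn2a also encodes ARF, which stabilises p53 by binding MDM2, and oncogenic Ras and Myc are known inducers of the INK4 and ARF products in fibroblasts. Ccnd1 is a classic example of an mRNA whose export and translation depend on eIF4E.

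Values were log2 RMA intensities (a robust multi-array average of a probe set's probes). The mean of an array was 7.47 to 7.50 for total RNA but 3.78 to 3.79 for polysomal RNA, which puts the fractions on separate levels. Background was read from Y-linked genes in embryos taken as female and Xist in those taken as male, over 28 values per fraction. It spanned 4.31 to 6.16 in total and 1.96 to 3.30 in polysomal RNA. The sample labels used give no sex, so it was inferred from the total RNA values of the same Y-linked genes, with 2 embryos taken as male. Polysomal arrays were less alike, with a median correlation to the other arrays of their fraction of 0.900 to 0.942 against 0.960 to 0.977 for total RNA. The polysomal arrays of untransformed WT embryo 1 and transformed WT embryo 3 had the smallest SD over probe sets, at 1.15 and 1.25 on the log2 scale, and are called the weak arrays. Those of untransformed Het embryo 3 and transformed Het embryo 2 followed at 1.28, so the name marks a rank and not a separate class. Eif4e in total RNA was lower in Het than in WT cells by 0.30 untransformed and 0.57 transformed, and the groups did not overlap in either state (exact two-sided permutation p = 0.1, the smallest that 3 against 3 can give). These values come from the brighter Eif4e probe set (10496485). The other (10496490) was also above the filter level on 24 arrays, and its values are not given here. The fibroblast markers Vim and Fn1 were high in every total RNA array, but the mean log2 level of 11 fibroblast markers was 10.86 to 11.12 in untransformed and 9.01 to 10.45 in transformed cultures. The mean over 9 leukocyte markers was 7.20 to 7.52 and 6.42 to 6.92. In bulk RNA, fewer cells of a type and less RNA per cell cannot be told apart.

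Ccnd1, Cdkn2a, Rb1 and Cdkn1b differed between transformed and untransformed cultures in total RNA whichever embryo was left out. With all embryos and over both genotypes, 6 of 10 members passed the test, 5 higher and 1 lower in transformed cells, and 4 to 5 passed with an embryo left out. Of all 14830 genes tested, 30.8% passed, 15% higher and 15.8% lower (limma, Benjamini-Hochberg adjusted p under 0.05), with a median difference of 0.03. Cdkn2a, Ccnd1, Rb1, Cdkn2b and Cdk4 rose and Cdkn1b fell, while Ccnd2, Ccnd3, Cdk6 and Cdkn2c did not pass. All differences of this kind are transformed minus untransformed on the log2 scale, fitted with embryo as a block. In the same fit, of the cell type markers that passed the filter, 7 of 11 for fibroblasts were lower in transformed cells and 0 higher. Of 6 leukocyte markers 4 were lower and 1, Cd14, was higher (0.75, adjusted p = 0.00723). The lower ones were Lyz2 (-3.975), Tyrobp (-1.47), Ptprc (-0.73) and Csf1r (-0.54). Of 5 endothelial markers 2 were lower, with Emcn at -2.35, and 1 higher. Of 5 neural markers 3 were lower, with Tubb3 at -2.54, and 1, Sox2, was higher at 2.54. Of 5 epithelial markers 1, Krt18, was higher at 1.76, and of 5 muscle markers 2 were lower. The part of such shifts, or of passage in culture, in the members' differences was not tested.

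**Figure D1:**
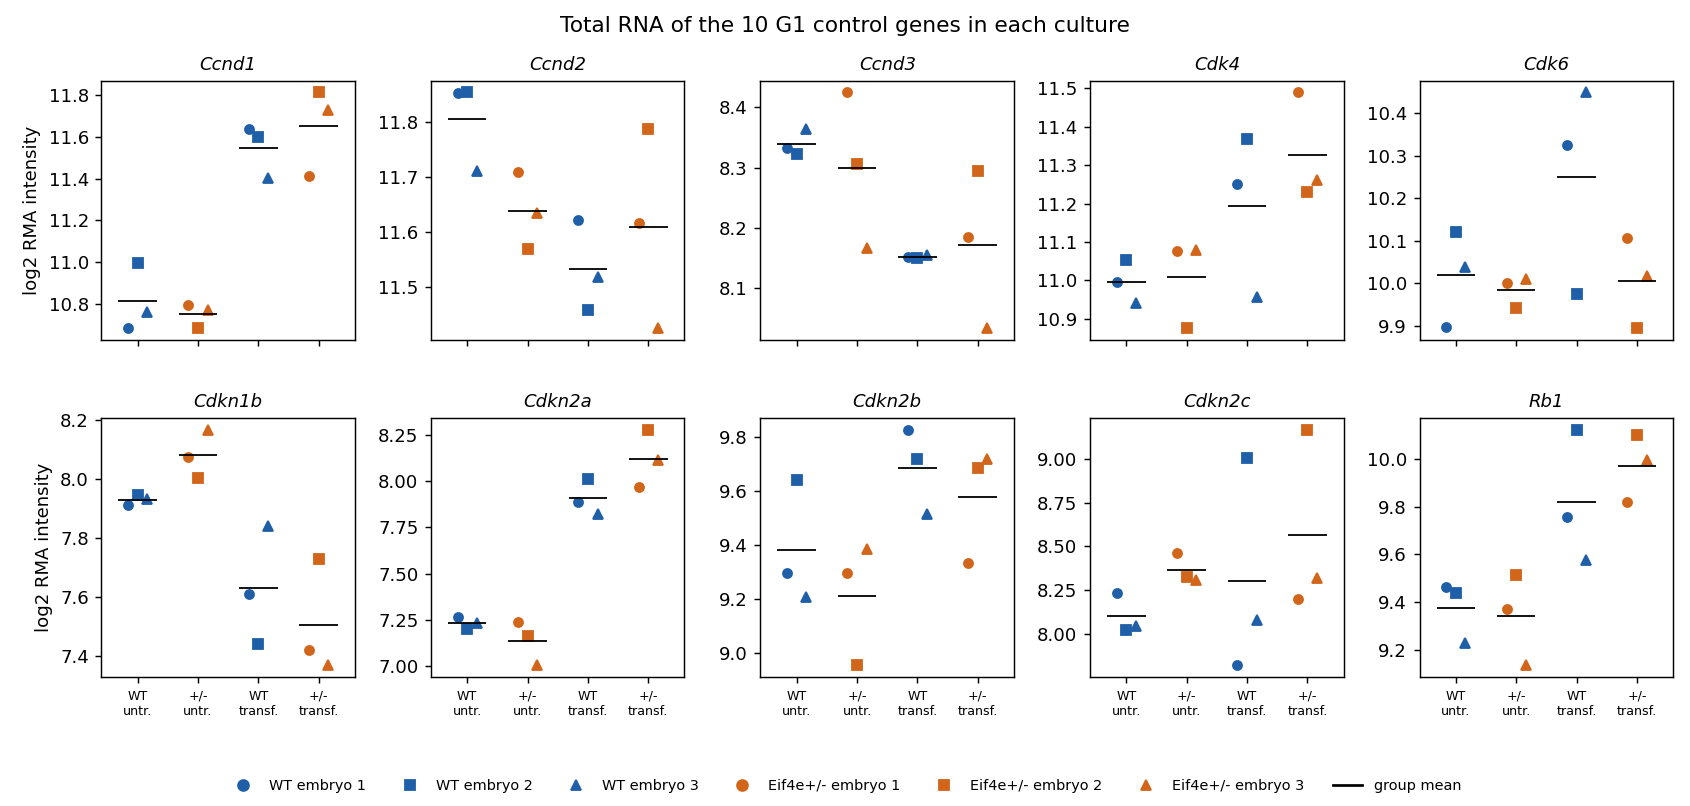
Log2 RMA intensity in total RNA (vertical axis, own scale per gene) of each member in the 12 cultures; symbols mark the embryo, colours the genotype, and lines the mean of 3 embryos. The transformed cultures of Ccnd1, Cdkn2a and Rb1 all lie above the untransformed ones, and those of Cdkn1b all lie below. The share of all genes whose states lie apart in this way was not counted.

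Among the D-type cyclins, Ccnd1 rose with transformation. Its probe set (10569646) lies at the gene on chromosome 7, bases 144929931 to 144939831 in GRCm38.p6. Untransformed cultures measured 10.69, 10.996 and 10.76 in WT embryos 1 to 3 and 10.80, 10.69 and 10.77 in Het embryos 1 to 3. Transformed cultures measured 11.64, 11.60 and 11.40 in WT and 11.41, 11.81 and 11.73 in Het embryos. Every transformed culture was above every untransformed one, and the lowest transformed values came from WT embryo 3 and Het embryo 1. The mean difference was 0.81 ± 0.08 (SE, 6 embryos), a 1.76-fold rise with an adjusted p of 0.000971 in limma. It was 0.73 in WT and 0.90 in Het cells, with adjusted p of 0.00939 and 0.00656 in limma. The WT call ended when WT embryo 1 was left out (0.62, adjusted p = 0.056) and the Het call without Het embryo 3 (0.87, adjusted p = 0.0592).

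The other D-type cyclins moved little. Ccnd2 was at 11.57 to 11.85 in untransformed and 11.43 to 11.79 in transformed cultures, with a difference of -0.15 ± 0.07 (SE, adjusted p = 0.151) that was negative in 5 of 6 embryos. Het embryo 2 was the exception, at 0.22. Ccnd3 differed by -0.16 ± 0.05 (SE, adjusted p = 0.0569) and was lower in 6 of 6 embryos, by 0.24 at most, with overlapping levels. The cyclins thus did not all move in the direction of Ccnd1, but differences between members were not tested.

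Of the kinases, Cdk4 rose and Cdk6 did not pass. Total RNA of Cdk4 was 10.99, 11.05 and 10.94 in untransformed WT and 11.08, 10.88 and 11.08 in untransformed Het embryos. In transformed cells it was 11.25, 11.37 and 10.96 in WT and 11.49, 11.23 and 11.26 in Het embryos. The states overlapped through WT embryo 3, whose own difference was 0.01, while all 6 embryos were higher after transformation. The mean difference of 0.26 ± 0.06 (SE) corresponded to 1.19-fold (adjusted p = 0.0219 in limma). This call was lost in limma when any of 4 embryos was left out: WT embryo 1 gave an adjusted p of 0.0714 when absent, WT embryo 2 gave 0.066, and Het embryos 1 and 2 gave 0.0793 and 0.0607. Each of these fits also has a residual degree of freedom less. Cdk6 differed by 0.13 ± 0.09 (SE, adjusted p = 0.318), from -0.15 in WT embryo 2 to 0.43 in WT embryo 1, and passed at 0.22 without WT embryo 2 (adjusted p = 0.04).

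Cdk4 is a textbook target of MYC, which binds the E-box CACGTG, and its start region is shown for the number of E-boxes it holds. The sequence is the 250 bases before the RefSeq start of Cdk4, chr10:127063285-127063534 in GRCm38.p6, plus strand, with each CACGTG in capitals.
Cdk4 promoter: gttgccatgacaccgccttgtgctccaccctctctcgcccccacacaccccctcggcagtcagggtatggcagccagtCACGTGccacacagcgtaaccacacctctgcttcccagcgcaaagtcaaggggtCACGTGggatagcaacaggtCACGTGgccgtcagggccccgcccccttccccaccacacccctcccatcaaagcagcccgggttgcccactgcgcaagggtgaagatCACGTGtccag
Its 4 E-boxes begin 172, 118, 98 and 11 bases before the start. The word reads the same on both strands. At least 1 E-box stood in 6.02% of 32851 RefSeq promoter windows of this length, and at least 4 in 7 windows (0.0213%). Windows were held for 7 of the 10 members, 10 windows in all. Ccnd1, Ccnd2 and Rb1 had no window and were not searched for any word. Of the members searched, only Cdk6 had a further E-box, a single match 220 bases before its start. The AP-1 word TGACTCA, searched on both strands, was in none of these 10 windows and in 4.46% of all windows. A match describes letters only, and no binding was measured.

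The INK4 genes at the Cdkn2a-Cdkn2b locus rose. Cdkn2a read 7.26, 7.20 and 7.23 in untransformed WT and 7.24, 7.16 and 7.003 in untransformed Het embryos. After transformation it read 7.89, 8.01 and 7.82 in WT and 7.97, 8.28 and 8.12 in Het embryos. Levels within a state were close together and the states were far apart, with no overlap. The mean difference was 0.83 ± 0.07 (SE, 6 embryos), or 1.78-fold, with an adjusted p of 0.000529 in limma, and it passed in WT (0.68, adjusted p = 0.00748) and in Het cells (0.99, adjusted p = 0.00345) alone.

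The Cdkn2a probe set (10514340) carries RefSeq transcripts of both products, so p16 and ARF cannot be told apart in these values. The products start at separate promoters of the minus strand of chromosome 4, and both 250-base windows before a RefSeq start in GRCm38.p6 are shown to set them side by side. The ARF start lies upstream, with its window at chr4:89294620-89294869, and the p16 start downstream, with its window at chr4:89282193-89282442. Capitals mark a match to the E2F words TTTCCCGC, TTTGGCGC, TTTCGCGC and TTTGCCGC, searched on both strands.
Cdkn2a upstream start (ARF): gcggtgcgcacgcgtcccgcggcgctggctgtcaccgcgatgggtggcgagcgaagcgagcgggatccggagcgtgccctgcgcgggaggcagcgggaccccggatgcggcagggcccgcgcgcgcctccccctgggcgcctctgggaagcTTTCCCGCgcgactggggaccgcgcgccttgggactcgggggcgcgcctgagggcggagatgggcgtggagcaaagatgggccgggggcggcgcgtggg
Cdkn2a downstream start (p16): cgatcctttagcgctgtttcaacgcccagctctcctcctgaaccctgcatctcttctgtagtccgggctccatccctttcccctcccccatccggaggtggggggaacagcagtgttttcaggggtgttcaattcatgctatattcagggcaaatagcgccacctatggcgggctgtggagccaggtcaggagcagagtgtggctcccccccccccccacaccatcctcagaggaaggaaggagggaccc
The upstream window had 1 match, 99 bases before the start, and the downstream window had none. Of all windows, 1.86% held at least 1 of these words. No other window held for a member contained one, and Ccnd1, Ccnd2 and Rb1 had no window to search.

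Cdkn2b, the neighbour of Cdkn2a on chromosome 4, had untransformed values of 9.29, 9.64 and 9.21 in WT and 9.29, 8.95 and 9.38 in Het embryos. Its transformed values were 9.83, 9.72 and 9.51 in WT and 9.33, 9.69 and 9.72 in Het embryos. All 6 embryos were higher after transformation, but the states overlapped, and the gain in Het embryo 1 was 0.04. The difference of 0.34 ± 0.10 (SE), or 1.26-fold, was close to the threshold (adjusted p = 0.0456 in limma). It did not pass without WT embryo 1 (0.28, adjusted p = 0.134), WT embryo 2 (0.052), WT embryo 3 (0.0809), Het embryo 2 (0.25, adjusted p = 0.0996) or Het embryo 3 (0.112).

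Cdkn2c split by embryo. It was 7.82, 9.01 and 8.08 in transformed WT and 8.20, 9.17 and 8.32 in transformed Het embryos, against 8.02 to 8.46 in all untransformed cultures. Embryo 2 of each genotype was high, with gains of 0.98 and 0.85, and the other 4 embryos lay between -0.41 and 0.04. The mean difference of 0.20 ± 0.21 (SE) did not pass (adjusted p = 0.516), and its interval ran from -0.29 to 0.69.

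Cdkn1b, which encodes p27, was the member that fell. Its probe set with the higher mean over all 24 arrays (10542310) gave 7.91, 7.95 and 7.93 in untransformed WT and 8.08, 8.003 and 8.17 in untransformed Het embryos. Transformed cultures gave 7.61, 7.44 and 7.84 in WT and 7.42, 7.73 and 7.37 in Het embryos, all below the untransformed ones. The level fell by 0.44 ± 0.09 (SE), to 73.8% of the untransformed level (adjusted p = 0.0102 in limma), and was lower in 6 of 6 embryos. The difference passed in Het cells alone (-0.58, adjusted p = 0.0269), though not without Het embryo 1 (-0.54, adjusted p = 0.141) or Het embryo 3 (-0.47, adjusted p = 0.164), and not in WT cells (-0.30, adjusted p = 0.148). The other probe set (10542317) read higher in total RNA, at 8.97 to 9.28 in untransformed and 7.96 to 8.72 in transformed cultures. It gave a larger fall in total RNA, by 0.88 over both genotypes (adjusted p = 0.00268 in limma). With it the difference passed in WT cells alone as well (-0.73, adjusted p = 0.0309).

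Rb1, the target of the cyclin D kinases, rose. It measured 9.46, 9.44 and 9.23 in untransformed WT and 9.37, 9.51 and 9.14 in untransformed Het embryos. In transformed cells the values were 9.76, 10.12 and 9.58 in WT and 9.82, 10.10 and 10.00 in Het embryos. The states did not overlap, although transformed WT embryo 3 was only just above untransformed Het embryo 2. The difference was 0.54 ± 0.08 (SE), or 1.45-fold, with an adjusted p of 0.00343 in limma. It passed in WT cells (0.44, adjusted p = 0.0408) and in Het cells (0.63, adjusted p = 0.0152). Leaving out any WT embryo ended the WT call, as did Het embryo 1 or 2 (adjusted p 0.0554 to 0.171), array weights (0.0594) and a fit without the embryo block (0.0536), and leaving out any Het embryo ended the Het call (0.0511 to 0.102). For WT cells alone 3 members passed against 16.7% of all genes, and for Het cells alone 4 members against 14.3%.

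In heavy polysomal RNA the rises of Ccnd1, Cdkn2a and Cdkn2b were seen again. Over both genotypes these 3 of 10 members passed, all higher, against 7.72% of all genes, of which 3.67% were higher. Ccnd1 was 6.15, 6.995 and 6.94 in untransformed WT and 6.95, 6.76 and 6.89 in untransformed Het embryos, and the lowest value came from the weak array of WT embryo 1. Its transformed values were 8.29, 8.10 and 7.73 in WT and 8.06, 7.73 and 8.35 in Het embryos. Every transformed culture was above every untransformed one. The difference was 1.26 ± 0.19 (SE), or 2.39-fold (adjusted p = 0.0085 in limma), and it did not pass without Het embryo 3 (1.19, adjusted p = 0.0549).

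**Figure D2:**
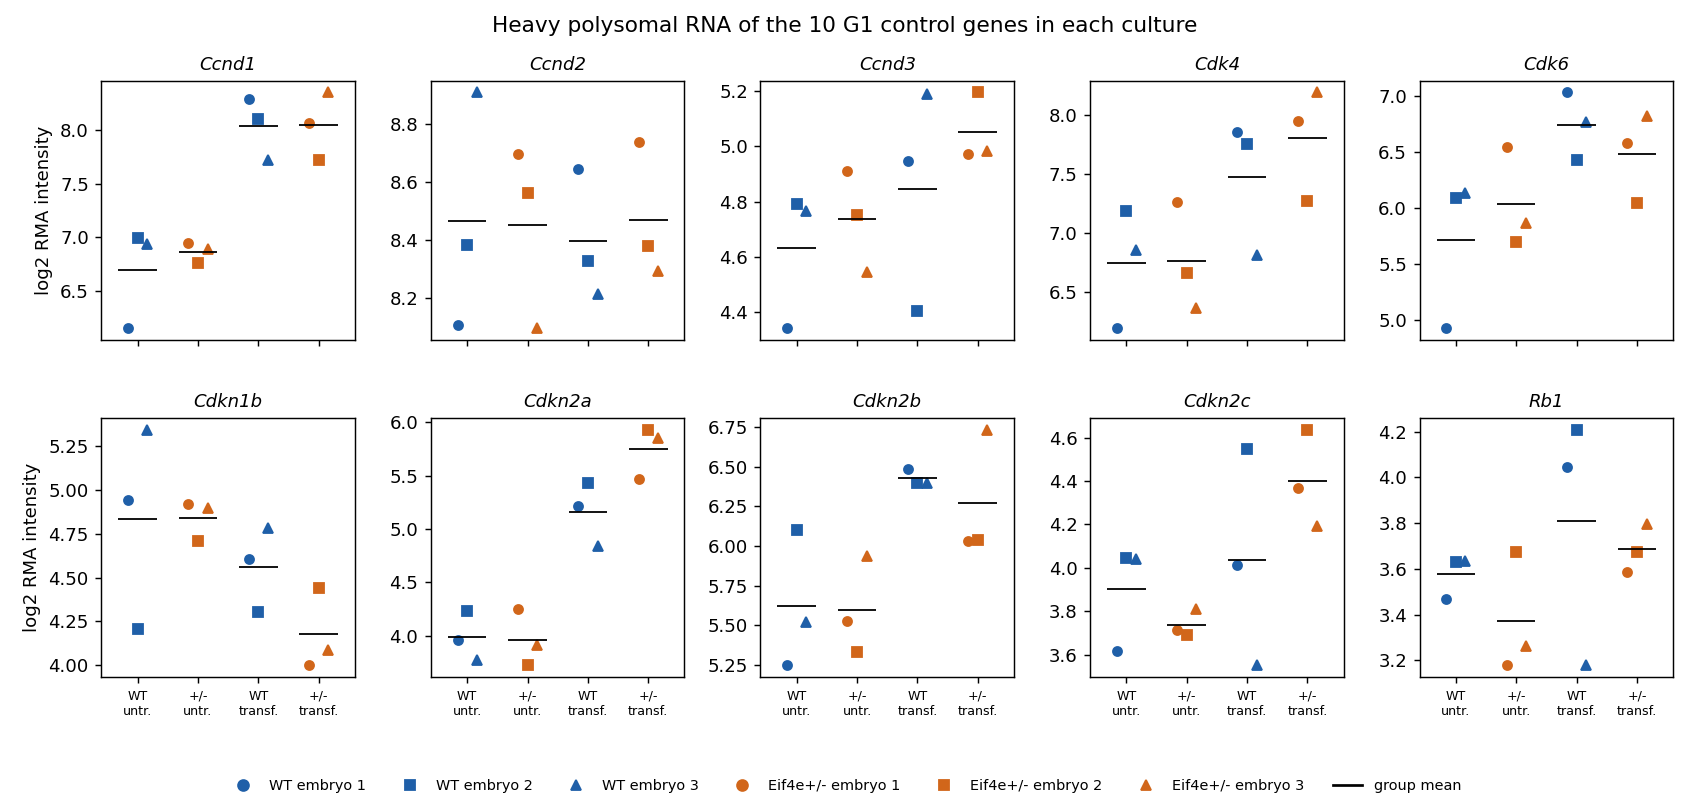
Log2 RMA intensity in heavy polysomal RNA (vertical axis, own scale per gene) of each member in the 12 cultures; symbols mark the embryo, colours the genotype, and lines the mean of 3 embryos. The states are apart for Ccnd1 and Cdkn2a and overlap for the other 8 members. How many of all genes have states apart was not counted.

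Polysomal Cdkn2a showed the largest difference among the members. It went from 3.96, 4.23 and 3.77 in WT and 4.25, 3.72 and 3.92 in Het embryos to 5.22, 5.43 and 4.84 in WT and 5.47, 5.93 and 5.85 in Het embryos. The states did not overlap, and all 6 embryos gained at least 1.07. The difference of 1.48 ± 0.15 (SE) was 2.79-fold (adjusted p = 0.00191 in limma). In Het cells alone it was 1.79 (adjusted p = 0.0123), the only member called there against 1.79% of all genes, and it was lost without any Het embryo (adjusted p 0.0762 to 0.153). In WT cells alone it was 1.18 (adjusted p = 0.0506), and 0 of 10 members passed against 1.28% of all genes.

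The third member, Cdkn2b, went from 5.25, 6.10 and 5.52 in WT and 5.53, 5.33 and 5.94 in Het embryos to 6.49, 6.39 and 6.39 in WT and 6.03, 6.04 and 6.74 in Het embryos. All 6 embryos rose, but the states overlapped through untransformed WT embryo 2. Its difference of 0.74 ± 0.15 (SE), or 1.67-fold (adjusted p = 0.0254 in limma), passed no longer in limma when WT embryo 1 was left out (adjusted p = 0.0709), or Het embryos 1, 2 or 3 in turn (0.0775, 0.0924 and 0.12). Without the cultures of the weak arrays it was 0.48 (adjusted p = 0.118), and trend and robust settings gave an adjusted p of 0.0636.

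The remaining members did not pass in polysomal RNA. Cdk4 differed by 0.88 ± 0.25 (SE, adjusted p = 0.0752), from -0.04 in WT embryo 3 to 1.82 in Het embryo 3. Cdk6 differed by 0.74 ± 0.24 (SE, adjusted p = 0.115) and was higher in 6 of 6 embryos. Without WT embryo 3, Cdk4 was at 1.07 (adjusted p = 0.00845), Cdk6 at 0.84 (0.0393) and Cdkn2c at 0.55 (0.0234), and each passed in limma, in a fit that called 2746 of all genes against 1145 with all embryos. Without the cultures of both weak arrays none of the 3 passed, with Cdk4 at 0.80 (adjusted p = 0.0849), Cdk6 at 0.40 (0.31) and Cdkn2c at 0.58 (0.0862). Cdk4 also passed with quantile normalization, with array weights and without the embryo block (adjusted p 0.0207 to 0.0405), and Cdkn2c with array weights (0.0412). Cdkn1b was at -0.47 (adjusted p = 0.104), Ccnd3 at 0.26 (0.426) and Ccnd2 at -0.03 (0.965). Rb1 lay at 3.18 to 4.21 in all 12 cultures, partly within the background range, so its polysomal difference of 0.27 (adjusted p = 0.45) says little.

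**Figure D3:**
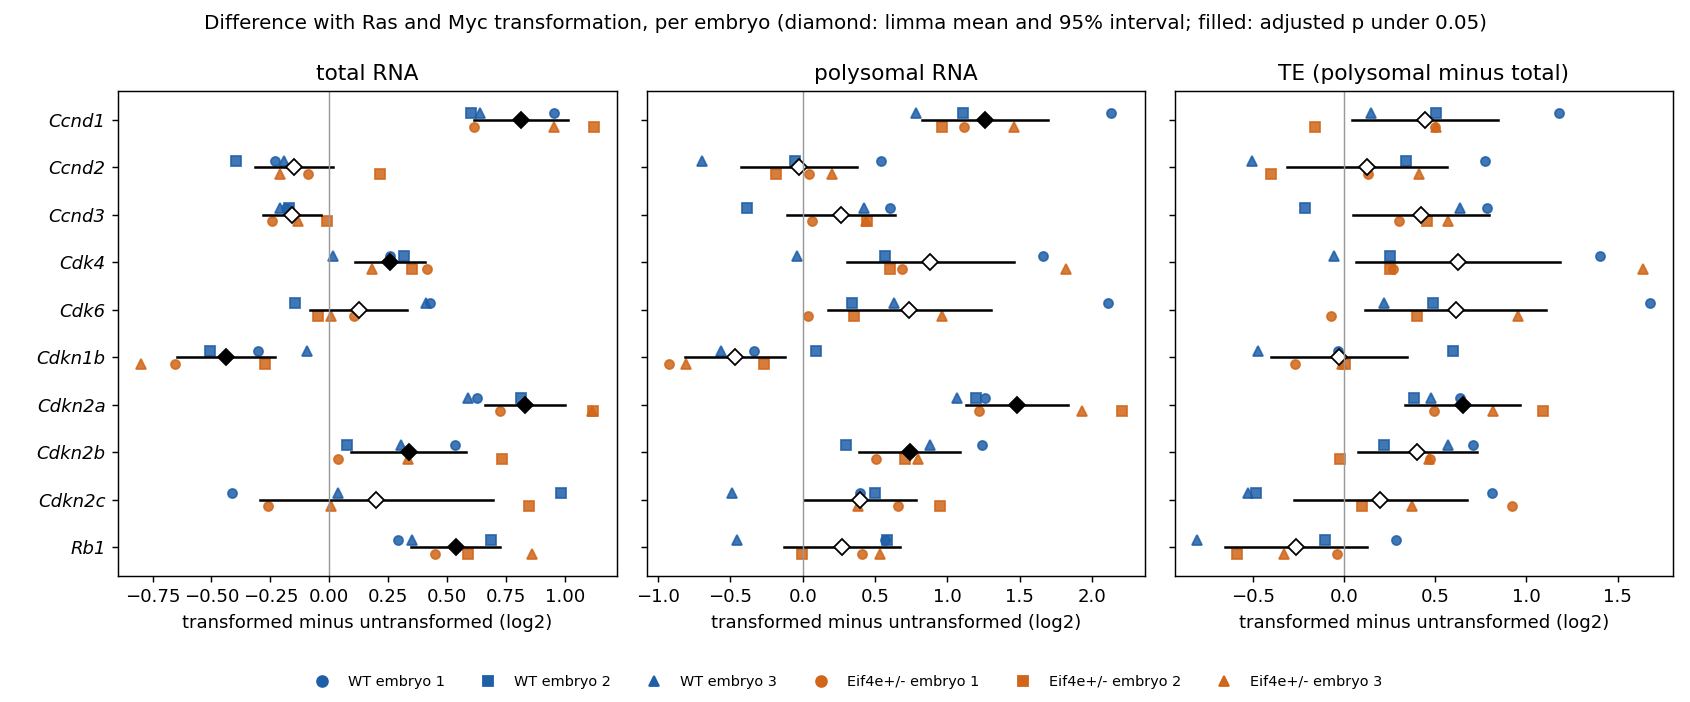
Transformed minus untransformed log2 difference (horizontal axis) of each member in total RNA, polysomal RNA and translational efficiency (TE); symbols are embryos, diamonds the limma mean with its 95% interval, filled where the adjusted p is under 0.05. All 6 embryos lie to the right of 0 for Cdkn2a in each panel, while the interval of Rb1 lies right of 0 in total RNA alone.

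Translational efficiency was a culture's polysomal value minus its total RNA value on the log2 scale, a difference with no absolute scale, so it was only compared between groups. Cdkn2a was the single member whose TE passed with transformation, against 2.78% of all genes. Its TE was -3.31, -2.97 and -3.46 in untransformed WT and -2.99, -3.44 and -3.09 in untransformed Het embryos. In transformed cells it was -2.67, -2.58 and -2.98 in WT and -2.50, -2.35 and -2.27 in Het embryos. All 6 embryos were higher, and the states overlapped by a small margin through transformed WT embryo 3. The difference was 0.65 ± 0.14 (SE), or 1.57-fold, with an adjusted p of 0.0462 in limma. It did not pass when WT embryos 1 or 2 were left out in turn (adjusted p = 0.123 and 0.113) or Het embryos 1, 2 or 3 (0.0935, 0.173 and 0.198), nor without the cultures of the weak arrays (0.59, adjusted p = 0.164) or with quantile normalization (0.60, adjusted p = 0.0712).

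The TE of Ccnd1 differed by 0.45 ± 0.18 (SE) with transformation and did not pass (adjusted p = 0.249). Its values ran from -4.53 in untransformed WT embryo 1 to -3.35 in transformed cultures, and it was higher in 5 of 6 embryos. Het embryo 2 was the exception, at -0.16. Both kinases differed by more, with Cdk4 at 0.63 ± 0.25 (SE, adjusted p = 0.245) and Cdk6 at 0.61 ± 0.22 (SE, adjusted p = 0.199), and neither passed. They passed in 1 of 14 alternatives, without WT embryo 3 (0.77 with adjusted p = 0.0462 and 0.76 with 0.0312), where 1540 of all genes were called against 413 with all embryos. Without the cultures of both weak arrays they were at 0.49 (adjusted p = 0.444) and 0.46 (0.386). Of the others, Ccnd3 was at 0.42, Cdkn2b at 0.40, Cdkn2c at 0.20, Ccnd2 at 0.12, Cdkn1b at -0.03 and Rb1 at -0.26, and none passed in limma. In WT cells alone 0 of 10 members passed against 0.701% of all genes, and in Het cells 0 of 10 against 0.297%. At an unadjusted p under 0.05, 1487 and 1524 of the 14830 genes stood in these comparisons.

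**Figure D4:**
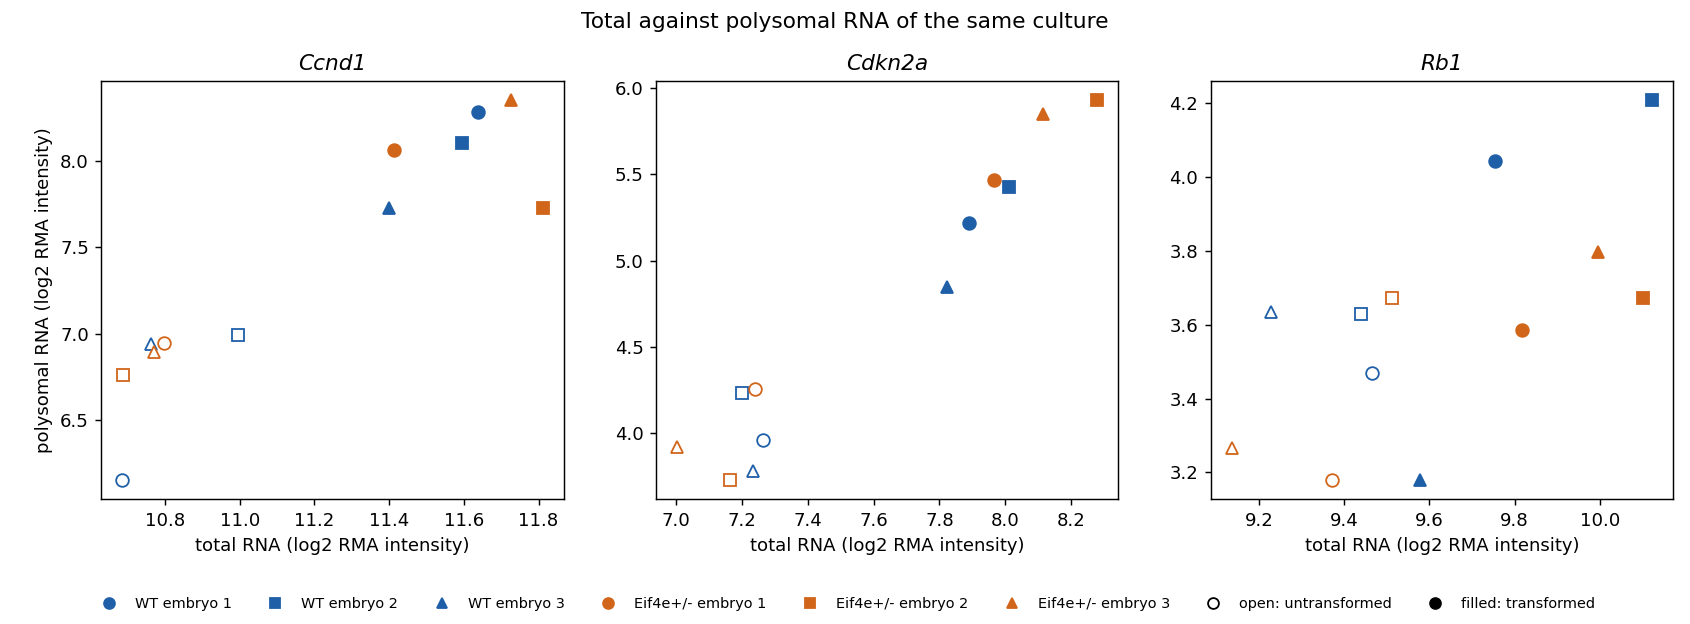
Log2 RMA intensity in total RNA (horizontal axis) and polysomal RNA (vertical axis) of the same culture for Ccnd1, Cdkn2a and Rb1; open symbols are untransformed and filled symbols transformed cultures. Transformed cultures of Ccnd1 and Cdkn2a sit apart in both fractions, whereas those of Rb1 are separate in total RNA and overlap in polysomal RNA.

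The genotype comparison asks whether a single intact Eif4e allele changed these mRNAs or their translation. With limma, 0 of 10 members passed in any of the 6 comparisons of Het with WT cells. Of all genes, 0.0472% (7 genes) passed in total RNA of transformed cells and 0% in each of the other 5. At an unadjusted p under 0.05 there were 352 and 1379 genes in total RNA, 247 and 478 in polysomal RNA and 215 and 430 in TE, untransformed first. The differences that follow are Het minus WT.

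The TE of Ccnd1 differed by 0.23 in untransformed cells, with a 95% interval from -0.27 to 0.74, and by -0.10 in transformed cells, with an interval from -0.60 to 0.41 (adjusted p = 1 in each, limma). Untransformed values were -4.53, -4.00 and -3.82 in WT and -3.85, -3.92 and -3.88 in Het embryos, and transformed values were -3.35, -3.50 and -3.67 in WT and -3.35, -4.08 and -3.37 in Het embryos. The groups overlapped in both states, with WT embryo 1 lowest when untransformed and Het embryo 2 lowest when transformed. The intervals leave room for a difference in either direction, so they do not show that the genotypes were alike. Total RNA of Ccnd1 differed by -0.06 and 0.11, and its polysomal RNA by 0.17 and 0.01. The polysomal array of untransformed WT embryo 1 is a weak array. Without the cultures of the weak arrays, the TE of Ccnd1 differed by 0.03 untransformed and -0.18 transformed. Its polysomal RNA then differed by -0.10 and -0.15.

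Cdkn2a gave the smallest p among the members, in transformed cells. Its polysomal RNA was higher in Het cells by 0.59 ± 0.21 (SE, unadjusted p = 0.0175, adjusted p = 1 in limma), with a 95% interval from 0.12 to 1.05, and each Het culture was above each WT culture (exact permutation p = 0.1). Its total RNA differed by 0.21 (adjusted p = 0.518) and its TE by 0.37 (adjusted p = 1 in limma), with TE groups that did not overlap. In untransformed cells the 3 differences were -0.10, -0.02 and 0.07 for total RNA, polysomal RNA and TE. In transformed cells, the lowest WT polysomal value came from the weak array of WT embryo 3. Without the cultures of the weak arrays, the transformed differences were 0.43 in polysomal RNA and 0.26 in TE.

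A few other groups did not overlap, all with an exact permutation p of 0.1 and none called. An exact p of 0.1 means that a share of 0.1 of such comparisons would lie apart by chance alone. Nothing is therefore read from the lack of overlap, here or for Cdkn2a. How many of all genes have genotype groups apart was not counted. In untransformed total RNA, Ccnd2 was lower in Het cells by 0.17, Cdkn1b was higher by 0.15 and Cdkn2c was higher by 0.27. In transformed cells, the TE of Cdkn1b was lower by 0.26. Cdk6 differed by -0.24 in transformed total RNA (unadjusted p = 0.0577, adjusted p = 0.551 in limma) with overlapping groups. The remaining differences in total RNA lay between -0.17 and 0.26.

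**Figure D5:**
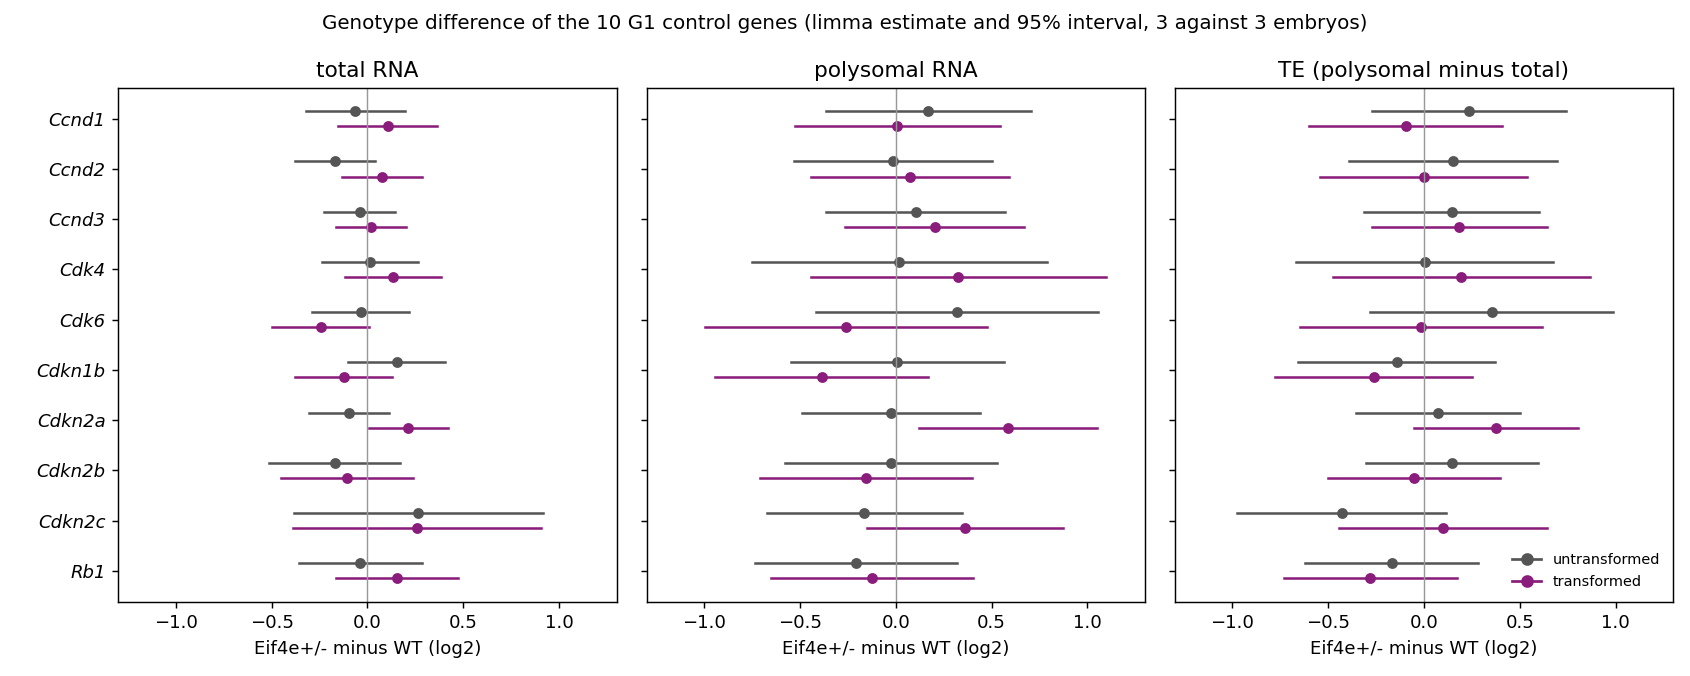
Eif4e+/- minus WT log2 difference (horizontal axis) of each member with its 95% interval from limma, 3 against 3 embryos, for untransformed (grey) and transformed (purple) cells. Intervals span 0 for 10 of 10 members when untransformed; in transformed cells those of Cdkn2a in total and polysomal RNA do not, and neither passed after adjustment.

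The difference of the genotype effect between the states was tested as an interaction with embryo as a block. In total RNA, polysomal RNA and TE, 0 of 10 members and 0% of all genes passed in limma, with 723, 314 and 289 genes at an unadjusted p under 0.05. For Cdkn2a the interaction was 0.31 (adjusted p = 0.916) in total RNA, 0.61 (adjusted p = 1) in polysomal RNA and 0.30 (adjusted p = 1) in TE. For Ccnd1 it was 0.17, -0.16 and -0.33 (adjusted p = 0.932, 1 and 1). The larger transformation differences of Cdkn2a in Het cells were therefore not shown to differ from those in WT cells.

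Other genes of the pathway are given by list for transformation in total RNA, where 30.8% of all genes passed, 15% higher and 15.8% lower, with a median of 0.03. Where polysomal RNA or TE is named, the share of all genes that passed was 7.72% or 2.78%. The counts in the lists are small and some lie near these shares, so nothing is read from them about a list as a whole. Of 12 pocket protein, E2F and DP genes, 2 rose and 3 fell, with a median of 0.09. E2f8, a repressor (0.78 ± 0.20, SE), and E2f4, a partner of the pocket proteins in quiescent cells (0.24), rose. The repressors E2f6 (-0.91 ± 0.07, SE) and E2f7 (-0.40) and the activator E2f1 (-0.17) fell, all in limma. E2f6 was also lower in polysomal RNA, at -0.91 (adjusted p = 0.0291).

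The replication genes driven by E2F that passed with transformation went in both directions. Of 18 measured, Mcm7, a subunit of the replicative helicase (0.38), Pola1, a DNA polymerase subunit (0.25), and the licensing factor Cdt1 (0.20) rose, Rrm1, a ribonucleotide reductase subunit, fell by 0.32, and the median was 0.01. In Het against WT untransformed total RNA their median was 0.28, against -0.01 for all genes, but 0 passed in limma. In transformed cells the median was 0.13, against 0.01 for all genes. These genes share the culture they come from, so they are not replicates, and the medians were not tested.

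Of 11 cyclin E and CDK2 regulators, 3 rose and 1 fell in total RNA, near the 30.8% of all genes that passed (median 0.07). Skp2, which marks p27 for degradation (0.34 ± 0.06, SE, adjusted p = 0.00498), Fbxw7, which does so for cyclin E (0.26), and Ccnh, a subunit of the CDK-activating kinase (0.36), rose. The inhibitory kinase gene Wee1 fell by 0.44. In polysomal RNA, Fbxw7 (0.91) and Cks1b, the SKP2 cofactor (0.95), rose.

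Of 18 regulators of the Cdkn2a-Cdkn2b locus and of ARF and p53, 2 rose and none fell (median 0.04). Mdm2, which encodes the ubiquitin ligase that ARF inhibits, rose by 0.96 ± 0.08 (SE, adjusted p = 0.000427) in total and 1.06 (adjusted p = 0.0175) in polysomal RNA. Kdm2b, a histone demethylase gene, rose by 0.24. Bmi1, a Polycomb repressor of the Cdkn2a locus, passed in polysomal RNA (0.92, adjusted p = 0.0196) and in TE (0.72, adjusted p = 0.0281), in limma. Of 9 genes of cyclin D and p27 stability, Ambra1, an adaptor for cyclin D degradation (0.29), rose, and Fbxw8 (-0.34) and Gsk3b (-0.20) fell. Skp1, a core subunit of SCF ligases, rose in polysomal RNA (0.80). The inhibitors Cdkn1c and Cdkn2d had a median of -0.24 and 0 of 2 passed. Cdkn1a, Trp53, Pcna and Hsp90ab1 were not analysed here. Between genotypes, 0 genes of these lists passed in limma in any of the 6 comparisons.

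Over the 12 total RNA cultures, the genes whose values followed Ccnd1 most closely were Foxo3 (Pearson r = 0.985), Ccar2 (0.977), Zmat3 (0.977), Ptpn14 (0.970) and Arap2 (0.969). Those closest to Cdkn2a were Osbpl6 (0.982), Btc (0.980), Hoatz (0.976), Ifi209 (0.972) and Ift140 (0.969). These are the highest of 14830 correlations, and the points share the split between states, so they are a description with no test.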

How the data were processed

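The authors deposited log2 RMA intensities of 24 Affymetrix Mouse Gene 1.0 ST arrays, per the submitters' processing notes and the series description. Not given in the sources used here are which RMA release and chip definition were used and how probe sets were filtered. From these, 20777 of 25668 probe sets with 1 gene symbol were kept (232 had several, 4659 none), and the brightest over 24 arrays stood for a gene. Tests ran on the 14830 genes that were above the 40th percentile of 3 or more arrays.

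TE was log2 polysomal minus log2 total, following the series description. Tests used limma 3.58.1 in R 4.3.3 (lmFit, eBayes), with Benjamini-Hochberg adjustment over all genes and a threshold of 0.05. Genotype fits had 4 group means and 8 residual degrees of freedom. Transformation and interaction fits had embryo as a block and 4, since the labels tie the states of an embryo together. In total RNA, deviations of an embryo's 2 states from their group means correlated at 0.125, 0.064 and -0.058 for WT and 0.045, 0.219 and 0.209 for Het embryos, and in polysomal RNA at -0.119, -0.052 and -0.438 and at 0.062, 0.019 and 0.053. In TE they were -0.19, 0.01 and -0.413 and 0.097, 0.097 and 0.05. The pairing therefore rests on the labels. Single values were compared with exact permutation tests. The precision is limited by 3 embryos per group.

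Members, lists, tests and alternatives were chosen with earlier results of these data known. Named genes were all members, list genes that passed (at most 4 per direction), Eif4e and the 5 genes most correlated with Ccnd1 and with Cdkn2a. Alternatives covered the filter, normalization, probe set choice, array weights, trend and robust settings, the block, the weak arrays and each embryo left out. Promoter windows came from RefSeq, GRCm38.p6.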

Additional observations from a re-analysis of the deposited data

How the results depend on the processing

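Counts of members called in the 6 genotype and 3 interaction comparisons were 0 under every alternative run. Of 10 members, the number whose difference changed sign under some alternative was 5 and 5 in genotype total RNA (untransformed, then transformed), 8 and 5 in polysomal RNA and 4 and 7 in TE. With transformation, over both genotypes, it was 0 in total RNA, 3 in polysomal RNA and 3 in TE. Ccnd1, Cdkn1b, Cdkn2a and Rb1 stayed called in total RNA, and Cdkn2a in polysomal RNA, under all 13 and 14 alternatives.

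The transformation counts moved. With an embryo left out, members called in total RNA ranged from 1 to 3 in WT cells, 1 to 5 in Het cells and 4 to 5 over both. In polysomal RNA they ranged from 0 to 2, 0 to 3 and 1 to 6, and in TE from 0 to 1 in Het cells and 0 to 3 over both. Each such fit also has fewer degrees of freedom. In polysomal RNA of WT cells, 1 member was called with quantile normalization, median centring, no filter or the mean of a gene's probe sets, and 2 with array weights. In polysomal RNA of Het cells, 2 were called with quantile normalization, 4 with array weights and 4 without the cultures of the weak arrays. Over both genotypes array weights called 5 in polysomal RNA. In TE of Het cells 1 was called without the weak arrays' cultures, and over both genotypes 0 were called with quantile normalization and 0 without those cultures. Without the replicate block, 2 members were called in polysomal RNA of WT cells (Ccnd1 and Cdkn2a), 2 in that of Het cells (again Ccnd1 and Cdkn2a), Cdk4 passed over both genotypes in polysomal RNA (0.88, adjusted p = 0.0405), and the WT call of Rb1 in total RNA was lost (0.44, adjusted p = 0.0536); no other member's call changed without the block. The causes were not tested.

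The other Cdkn1b probe set, chosen as an alternative after seeing the data, gave a TE difference of 1.07 with transformation (adjusted p = 0.0168) against -0.03, and its polysomal values of 2.15 to 3.42 lay mostly in the background range. Counts over all genes moved by more than 1.5 times. In total RNA they were 2476 (952 to 3026) in WT cells, 2115 (326 to 3255) in Het cells and 4569 (2879 to 5140) over both. In polysomal RNA they were 190 (21 to 1735), 266 (0 to 1449) and 1145 (306 to 2746), in TE 104 (14 to 881), 44 (0 to 688) and 413 (94 to 1540), and for genotype in transformed total RNA 7 (0 to 51). Signal over background limits the polysomal values of Rb1 and of the other Cdkn1b probe set. Untransformed polysomal values of Cdkn2a (3.72 to 4.25) and Cdkn2c (3.62 to 4.05) lay above the background range but near its upper end of 3.30.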
